A study of Mus musculus with 2 samples.

Results

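The contractile and basal side of the mammary gland was read in TUBO cells from 8 genes, out of 31017 in the count table. They were taken by name, with earlier results of these data known: Acta2, Tagln, Cnn1, Myh11, Mylk, Oxtr, Procr and Vim. All 8 had a row in the table. TUBO is a mouse breast cancer line, known as a cloned line from a mammary tumour of a BALB/c mouse carrying a rat Her2/neu transgene under the mouse mammary tumour virus promoter. The cells were untreated and grown flat on plastic in DMEM/F12 with serum, and mRNA was sequenced with a stranded kit. There was 1 group with 2 libraries, replicate 1 with 35453278 counts and replicate 2 with 34098259 counts, and nothing in the labels says that they came from separate cultures. With 1 group there was no contrast between conditions, and what was measured is how high each gene stood. Errors over the libraries measure only their spread, which may be technical.

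In the mammary gland, milk is made by an inner layer of luminal cells and squeezed out by an outer layer of myoepithelial cells, which belong to the basal lineage. Myoepithelial cells resemble smooth muscle: oxytocin binds its receptor Oxtr, calcium rises and switches on the kinase Mylk, and myosin built on Myh11 pulls on filaments of the actin Acta2, with Tagln and Cnn1 bound along them. Transcription of these smooth muscle genes is known to depend on the serum response factor Srf and its partners of the myocardin family, which act through a DNA element called the CArG box. Procr, the endothelial protein C receptor, also marks a population of mouse mammary basal cells, and Vim, the intermediate filament protein vimentin, is found in basal and mesenchymal cells.

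Vim was abundant and the other 7 genes had few counts. Vim had 4142 counts in replicate 1 and 3568 in replicate 2, while the other 7 genes together had 99 and 126. Vim therefore held 97.7% and 96.6% of the counts of the 8 genes. Counts were divided by the library total to give CPM, scaled with TMM factors, and a gene counted as detected when each library reached 1 CPM. By this rule 1 of the 8 genes, Vim, was detected, against 37.7% of all genes in the table. The median log2(CPM + 1) of the 8 genes was 0.60 ± 0.13, against 0.12 ± 0.00403 over all 31017 genes, of which 12710 had no count, and 5.18 ± 0.00528 over the 11692 detected genes (SD, n = 2). A count of 0 allows up to 3 counts, which is 0.0842 CPM in replicate 1 and 0.0885 CPM in replicate 2, and this limit and the intervals given here cover counting error only. In a bulk library a gene carried by few cells and a gene carried at a low level by every cell cannot be told apart.

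**Figure D1:**
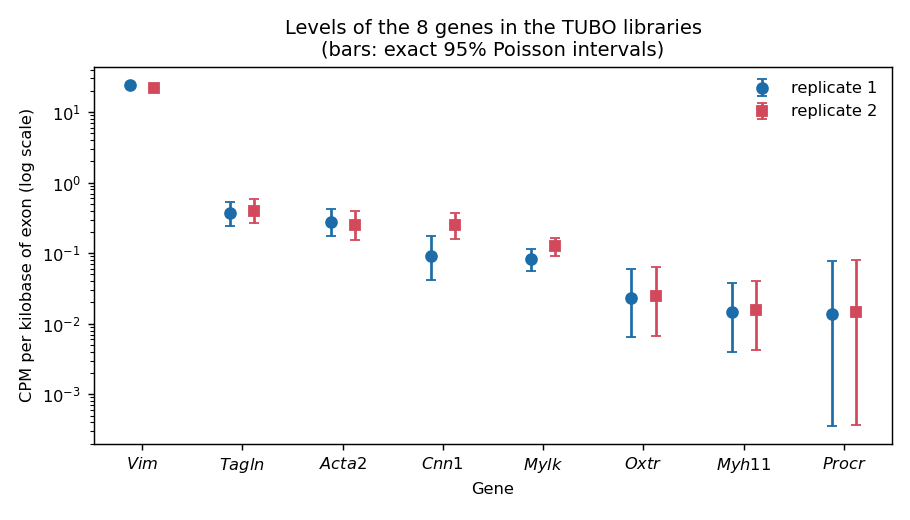
Level of each of the 8 genes in CPM per kilobase of exon on a log scale, with replicate 1 as circles, replicate 2 as squares and exact 95% Poisson intervals of the counts as bars. Vim stands at 24.5 and 22.2, and every other gene lies at or below 0.400.

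The thin filament genes had 27 counts or fewer in each library. Acta2 (chromosome 19, 34241090 to 34255590, minus strand, GRCm38) encodes smooth muscle alpha actin, and it had 22 counts in replicate 1 and 19 in replicate 2. Its level was 0.617 CPM (exact 95% Poisson interval 0.387 to 0.935) and 0.560 CPM (0.337 to 0.875), so the intervals lay below 1 CPM in both libraries. Tagln (chromosome 9, 45929619 to 45936058, minus strand) encodes the actin-bundling protein SM22. It had 26 and 27 counts, or 0.729 CPM (0.476 to 1.07) and 0.796 CPM (0.525 to 1.16). The libraries agreed within counting error for both genes, and both genes stood well above the limit set by a count of 0. Cnn1 (chromosome 9, 22099216 to 22109630, plus strand) encodes calponin 1, which binds actin and slows myosin. It had 9 counts in replicate 1 and 23 in replicate 2, or 0.252 CPM (0.115 to 0.479) and 0.678 CPM (0.430 to 1.02). Cnn1 was the member with the widest relative gap between the libraries, although its intervals overlapped.

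The motor gene was lower than that of its regulator, also per kilobase of exon. Myh11 (chromosome 16, 14194535 to 14291372, minus strand), the smooth muscle myosin heavy chain, had 4 counts in each library, or 0.112 CPM (0.0306 to 0.287) and 0.118 CPM (0.0321 to 0.302). Mylk (chromosome 16, 34745210 to 35002420, plus strand), the kinase that phosphorylates the myosin regulatory light chain, had 33 and 48 counts. These gave 0.926 CPM (0.637 to 1.30) in replicate 1 and 1.42 CPM (1.04 to 1.88) in replicate 2, so Mylk fell on either side of the 1 CPM line. It was at 1 CPM or more in both libraries once Gm26917 and Gm42418, a very abundant pair of noncoding RNA genes, were left out of the totals, which raised its mean to 1.31 CPM from the same counts. Mylk is known to give rise to long and short kinases and to the non-kinase protein telokin, and counts per gene do not separate these products.

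Both receptor genes were at the limit. Oxtr (chromosome 6, 112473683 to 112489943, minus strand) had 4 counts in each library, or 0.112 CPM (0.0306 to 0.287) and 0.118 CPM (0.0321 to 0.302). Procr (chromosome 2, 155751117 to 155755471, plus strand) had 1 count in each library, which is under the level that a count of 0 allows. At this depth neither gene can be ranked against the other. Vim (chromosome 2, 13573927 to 13582826, plus strand) stood at 116 CPM (113 to 120) in replicate 1 and 105.2 CPM (101.8 to 109) in replicate 2.

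Per kilobase of exon, which allows different genes to be compared, the order was Vim, Tagln, Acta2, Cnn1, Mylk, Oxtr, Myh11 and Procr, with the place of Tagln uncertain because genes on the other strand overlap it. Vim averaged 23.3 ± 1.64 CPM per kilobase and Tagln 0.384 ± 0.0237, and their intervals were far apart in both libraries. Acta2 followed at 0.268 ± 0.0183, and its intervals overlapped those of Tagln in both libraries. Cnn1 averaged 0.170 ± 0.11 (all SD, n = 2). The Acta2 and Cnn1 intervals were separate in replicate 1 and overlapped in replicate 2, and their order was not tested. Mylk, at 0.104 ± 0.0307, overlapped Cnn1 in both libraries. It was separate from Oxtr (0.0240 ± 0.000845) in replicate 2 and not in replicate 1. The intervals of Myh11 (0.0151 ± 0.000533) overlapped those of Oxtr and of Procr (0.0142 ± 0.000498) in both libraries. Vim had a higher level per kilobase than 93.8% and 93.1% of the genes with a known length, and the other 7 genes than 46.1% to 60.5% of them.

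Reads from similar genes could be exchanged in these counts, so the sequence of the members was compared with that of other transcripts. The actins are the closest family. The first 60 coding bases of Acta2 are shown with those of its smooth muscle sister Actg2 and of the cytoplasmic actins Actb and Actg1, from GENCODE M21 transcripts on GRCm38, to show what separates a gene with 22 counts from one with 231104. Capitals mark bases that differ from the aligned Acta2 base. The alignment held gaps of 3 bases in Actg2 and of 6 bases each in Actb and Actg1, which are not drawn. The lines are therefore shifted against that of Acta2, and their last bases are compared with Acta2 bases beyond those shown.
Acta2: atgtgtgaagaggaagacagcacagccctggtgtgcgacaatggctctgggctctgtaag
Actg2: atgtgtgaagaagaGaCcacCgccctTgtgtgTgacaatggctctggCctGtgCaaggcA
Actb: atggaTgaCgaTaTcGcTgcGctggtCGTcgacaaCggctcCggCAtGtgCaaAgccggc
Actg1: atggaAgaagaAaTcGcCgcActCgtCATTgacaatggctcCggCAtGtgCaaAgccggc

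In this stretch Actg2 differed from the aligned Acta2 bases at 9 bases, and Actb and Actg1 at 17 each, with gaps not counted. Over the whole coding sequence the identity to Acta2 was 84.2% for Actg2, 82.8% for Actb and 81.5% for Actg1. Of the 50-base windows of Acta2 transcripts, 0.326% also occurred in a transcript of another gene. The share was 0 for Cnn1, Oxtr, Procr and Vim, 0.340% for Myh11, 4.56% for Mylk and 58.3% for Tagln. The Tagln windows were shared mostly with Gm48529, a gene on the opposite strand. Exons of Gm48529 and of the protease gene Pcsk7 on that strand covered 67.9% of the exonic bases of Tagln. Pcsk7 had 1904 and 1754 counts and Gm48529 had 69 and 49. Whether strand was used in counting is not given in the sources used here, so reads of Tagln and of these neighbours cannot be told apart and the Tagln level is uncertain.

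The contractile members were set beside the related genes that build the cytoskeleton of non-muscle cells. Each of the 4 filament and motor genes stood at 0.378% or less of its non-muscle relatives per kilobase, and the gap was far larger than the spread between libraries. The bound of 0.378% is that of Tagln, whose level is uncertain, and Acta2, Cnn1 and Myh11 stood at 0.369% or less. Acta2 was at 0.281 and 0.255 CPM per kilobase, against 2420 and 2199 for Actb and 995 and 949.8 for Actg1. The Acta2 level was thus 0.0116% of the Actb level in both libraries, and 0.0283% and 0.0269% of the Actg1 level. On a scale of log2(CPM per kilobase + 0.1), which understates the gap of low genes, Acta2 minus Actb was -12.61 ± 0.0258 (SD, n = 2). That SD is smaller than the counting error of Acta2 itself, whose intervals span more than a doubling of the level. An exact sign test over 2 libraries has a smallest p of 0.5, and none was run.

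The other sarcomeric and smooth muscle actins had fewer counts than Acta2. Actg2 had 4 counts in each library. Per kilobase Acta2 was at 3.90 and 3.37 times the Actg2 level, and their intervals overlapped in both libraries. Overlap alone does not leave an order open, and the order of these genes was not tested. Acta1, the skeletal muscle actin, had 0 and 3 counts. Actc1, the cardiac actin, had no count, so Acta2 was at least 5.40 and 4.67 times higher than the 3 counts per library that a count of 0 allows.

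Tagln, Cnn1 and Myh11 repeated the pattern within their own families. Tagln was at 0.367 and 0.400 CPM per kilobase, against 111 and 105.9 for Tagln2, the form of non-muscle cells, so it was at 0.330% and 0.378% of the Tagln2 level. Tagln3, the neuronal form, had 6 counts and 1 count. Cnn1 was at 0.0923 and 0.248 CPM per kilobase, against 68.8 and 67.1 for Cnn2 and 108.7 and 100.4 for Cnn3, both calponins of non-muscle cells. On the log2 scale Cnn1 minus Cnn3 was -8.66 ± 0.686, and Cnn1 minus Cnn2 was -8.04 ± 0.629. The SD of both comes mostly from the gap in Cnn1 between the libraries. Myh11 was at 0.0148 and 0.0155 CPM per kilobase, against 61.6 and 63.1 for Myh9, 21.1 and 22.3 for Myh14 and 6.10 and 6.62 for Myh10, the heavy chains of non-muscle myosin. Myh11 minus Myh9 was -9.08 ± 0.0191 on the log2 scale, and Myh11 minus Myh10, the lowest of the non-muscle chains, was -5.81 ± 0.0750.

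**Figure D2:**
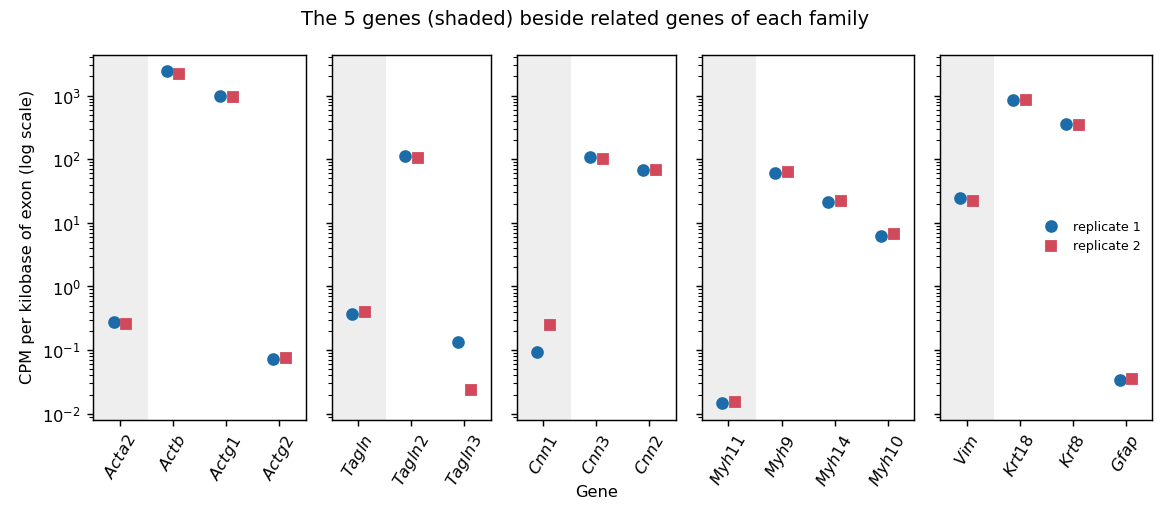
Levels in CPM per kilobase of exon on a log scale, with replicate 1 as circles and replicate 2 as squares, for Acta2, Tagln, Cnn1, Myh11 and Vim (shaded) beside related genes. Acta2, Tagln, Cnn1 and Myh11 lie between 0.0148 and 0.400, and their non-muscle relatives lie between 6.10 for Myh10 and 2420 for Actb. Vim lies below the keratin genes Krt18 and Krt8 and above Gfap.

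Mylk and Oxtr had no abundant relative. Mylk2 (1 and 0 counts), Mylk3 (2 and 1 counts) and Mylk4 (1 and 8 counts), the other myosin light chain kinase genes, which are known from skeletal and cardiac muscle, were lower than Mylk per kilobase in both libraries. With so few counts no fold is given. The vasopressin receptor genes Avpr1a, Avpr1b and Avpr2, the closest relatives of Oxtr, had no count, and with 4 counts for Oxtr no fold is given.

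Vim was intermediate within the intermediate filament family. The other type III filament genes were low: Des, of muscle, and Prph, of neurons, had no count, and Gfap, of glia, had 5 counts in each library. Vim was 737 and 635 times the Gfap level per kilobase, and at least 1093 and 941 times higher than the 3 counts that a count of 0 allows for Des. Against the keratins of luminal cells it was low. Vim stood at 24.5 and 22.2 CPM per kilobase, against 356 and 342 for Krt8 and 854 and 839 for Krt18. That was 6.88% and 6.48% of the Krt8 level, or a log2 difference of -3.90 ± 0.0614. Over all 23 pairs of a member and a related gene, the member was lower in both libraries in 10. The remaining 13 set it against a gene with at most 8 counts in a library, and some of those, such as Oxtr against the vasopressin receptor genes, give no order beyond counting error.

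The wider smooth muscle program was split. Of 18 other contractile genes, 9 were detected, with a median log2(CPM + 1) of 2.33 ± 0.0702. The detected genes were led by the actin crosslinker Flna (964 ± 37.8 CPM), the tropomyosin gene Tpm1 (553 ± 1.46 CPM), the caldesmon gene Cald1 (483 ± 11.2 CPM) and the LIM protein gene Csrp1 (196 ± 1.62 CPM), all of which non-muscle cells also use. Another 4 genes had no count: the regulatory light chain gene Myl9, Des, Pdlim3 and Kcnmb1, a subunit of the smooth muscle potassium channel. Tpm2, another tropomyosin of smooth muscle, had 7 and 8 counts. The leiomodin gene Lmod1 had 32 and 34 counts, or 0.898 and 1.00 CPM, just short of detection in replicate 1. All 18 genes of the non-muscle actomyosin list were detected (100%, against 37.7% of all genes), with a median of 8.08 ± 0.0454. They were led by Actb (6187 ± 419 CPM), Actg1 (2584 ± 84.2 CPM), Myh9 (806 ± 14.4 CPM) and the regulatory light chain gene Myl12a (624 ± 16.2 CPM).

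Of 9 genes of Srf, its partners and related regulators, 7 were detected (77.8%, against 37.7% of all genes). Srf stood at 72.3 ± 2.17 CPM, its coactivator genes Mkl2 at 84.5 ± 3.30 CPM and Mkl1 at 41.1 ± 1.48 CPM, and the TEAD factor gene Tead1 led with 163 ± 4.38 CPM. The ternary complex factor gene Elk4 was at 102.3 ± 5.43 CPM. Myocd, the coactivator that is specific to cardiac and smooth muscle, had no count. Klf4, whose product represses smooth muscle genes in vascular cells, had 1 count and 0 counts. The general Srf machinery was thus measured well above the detection line while the muscle-specific coactivator was at 0.

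Promoter windows from 250 bases before to 50 bases after a RefSeq start (GRCm38.p6) were available for 6 of the 8 genes, and not for Tagln and Myh11. These starts can differ from the gene ends given above, and the Mylk window (34784700 to 34784999) lies well inside that gene. Vim is shown as the detected member, and Cnn1 with Cnn2 as a low member beside an abundant relative. Capitals mark matches, on either strand, to the CArG box, to TATAAA (known as the TATA box), to CCAAT (the CAAT box) and to CATTCC (the core site of TEAD factors). The CArG box was searched as CC, 6 bases of A or T, and GG, with no other base allowed. No match in these windows overlapped another.
Vim, chr2:13574061-13574360, plus strand: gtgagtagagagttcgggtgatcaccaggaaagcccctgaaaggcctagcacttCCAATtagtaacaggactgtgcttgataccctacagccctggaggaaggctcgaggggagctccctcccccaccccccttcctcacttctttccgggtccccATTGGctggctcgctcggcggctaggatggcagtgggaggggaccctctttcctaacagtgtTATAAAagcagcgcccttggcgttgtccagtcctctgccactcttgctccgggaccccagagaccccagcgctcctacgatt
Cnn1, chr9:22099003-22099302, plus strand: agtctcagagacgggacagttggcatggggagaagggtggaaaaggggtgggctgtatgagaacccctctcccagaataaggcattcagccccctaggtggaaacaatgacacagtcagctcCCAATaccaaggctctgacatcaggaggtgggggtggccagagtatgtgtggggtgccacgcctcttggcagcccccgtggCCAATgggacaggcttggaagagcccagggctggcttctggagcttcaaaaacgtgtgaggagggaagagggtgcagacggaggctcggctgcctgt
Cnn2, chr10:79988350-79988649, plus strand: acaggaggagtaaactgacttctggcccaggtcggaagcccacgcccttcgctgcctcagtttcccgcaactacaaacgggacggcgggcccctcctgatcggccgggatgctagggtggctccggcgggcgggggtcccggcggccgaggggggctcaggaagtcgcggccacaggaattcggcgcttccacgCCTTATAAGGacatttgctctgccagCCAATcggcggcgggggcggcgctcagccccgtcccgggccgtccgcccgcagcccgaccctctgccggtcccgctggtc

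The Vim window held TATAAA with its first base 32 bases before the start, and CCAAT at 196 and 94 bases before it. The Cnn1 window held CCAAT at 128 and 47 bases before the start. The Cnn2 window held a CArG box at 56 and CCAAT at 30 bases before the start. A CArG box of this strict form was found in none of the 6 windows of the members. Among the windows of their non-muscle relatives it was found in those of Cnn2 and Actg1. Actb and Actg2 had no window, and forms of the box with another base in the core were not searched. The motif CATTCC was found once each in the Acta2, Mylk and Myh10 windows and at 2 places in that of Tagln2. Of 32851 windows of this length in RefSeq, 1.63% held a CArG box, 13.6% TATAAA, 37.4% CCAAT and 14.7% CATTCC. A match describes letters in the window and is no evidence of binding, and elements outside the window were not searched.

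Most genes of the oxytocin signalling list, which also holds the hormone gene, were detected, at levels that differed widely. Of 18 genes of oxytocin signalling, 15 were detected (83.3%, against 37.7% of all genes), with a median log2(CPM + 1) of 6.33 ± 0.0928. Among the most abundant were the calcium release channel gene Itpr3 (344 ± 7.51 CPM) and the G protein gene Gnaq (313 ± 2.98 CPM). The gene of the hormone itself, Oxt, had 1 and 4 counts. These transducers serve many receptors, so their levels say nothing particular to Oxtr.

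Of 13 genes around protein C and thrombin, 4 were detected (30.8%, near the 37.7% of all genes), with a median of 0.23 ± 0.00747. These were the tissue factor gene F3 (317 ± 2.67 CPM), the protein S gene Pros1 (73.0 ± 0.787 CPM) and the receptor genes F2rl1 (57.4 ± 0.188 CPM) and F2r (2.14 ± 0.0264 CPM). Thbd, the thrombomodulin gene, whose product activates protein C together with thrombin, had no count, and neither had Serpina5 nor F10. Proc, the gene of protein C, had 9 and 11 counts. Procr and Thbd, the receptor genes whose products promote protein C activation on endothelium, were thus both at or under the limit of counting.

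Of 14 basal genes outside the 8, 4 were detected (28.6%, against 37.7% of all genes, a share near that background), with a median log2(CPM + 1) of 0.10 ± 0.0581. They were the transcription factor gene Sox10 (532 ± 15.6 CPM), the Notch ligand genes Dll1 (174 ± 3.36 CPM) and Jag2 (1.92 ± 0.576 CPM), and Id4 (59.1 ± 0.241 CPM), an inhibitor of differentiation known from mouse mammary basal cells. Krt5 (3 and 2 counts), Krt14 (0 and 3 counts) and Trp63 (2 and 3 counts), which define basal cells, were at the limit, and Snai2 had no count. All 6 luminal genes examined were detected (100%, against 37.7% of all genes), with summed levels of 4709 and 4563 CPM. The 8 genes are named here for where they are known to act. Krt5, Krt14 and Trp63, named after their values were seen, were not detected, whereas Sox10, Dll1, Id4 and Jag2 of the same list were.

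Among partners of Vim, 9 of 12 intermediate filament and linker genes were detected, with a median of 8.26 ± 0.172. Beside the keratin genes Krt18 (1217 ± 15.2 CPM), Krt7 (788 ± 31.1 CPM) and Krt8 (684 ± 18.8 CPM), the list was led by Nes (965 ± 22.2 CPM), the gene of nestin, which co-assembles with vimentin. Per kilobase Nes averaged 150 ± 3.46, above Vim at 23.3 ± 1.64, and the libraries did not overlap. Plec, a linker that binds vimentin, stood at 258 ± 19.8 CPM, and Synm, another partner, at 4.12 ± 0.226 CPM.

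Vim and Acta2 are also genes of fibroblasts, pericytes and vascular smooth muscle, so markers of these cells were read beside them. Of 8 fibroblast markers 1 was detected (12.5%, against 37.7% of all genes). It was Pdgfra at 7.64 ± 1.08 CPM, and the list summed to 7.91 and 8.93 CPM. Col1a2, Col3a1, Dcn, Lum, Pdgfrb and Thy1 had no count, and Col1a1 had 37 and 18. Of 7 markers of pericytes and vascular smooth muscle 2 were detected (28.6%, near the 37.7% of all genes). They were Notch3 (134 ± 4.36 CPM) and Mcam (8.22 ± 0.472 CPM), and Rgs5 and Des had no count. That list summed to 139 and 146 CPM, most of it from Notch3. None of 5 endothelial and none of 4 leukocyte markers was detected, with sums of 0.281 and 0.265 CPM and of 0 and 0.0295 CPM.

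**Figure D3:**
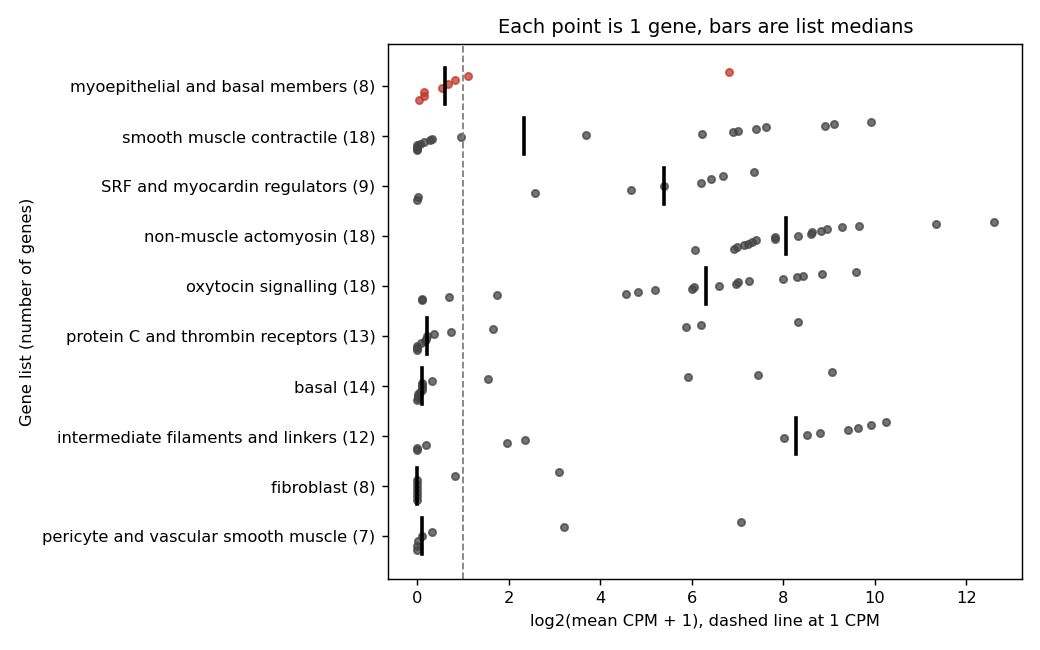
Mean level of each gene as log2(CPM + 1), with 1 point per gene, a bar at each list's median and a dashed line at 1 CPM. Of the 8 genes at the top, Vim lies far to the right and the other 7 lie at or just past the dashed line or left of it, while the whole non-muscle actomyosin list lies to the right.

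The libraries were compared gene by gene by a two-sided exact binomial test of the reads, so it speaks of these libraries and of counting error alone. Of the 8 genes, 4 passed the filter on low counts: Vim, Tagln, Acta2 and Mylk. The log2 ratio of replicate 2 over replicate 1 was -0.14 for Vim, 0.13 for Tagln, -0.13 for Acta2 and 0.61 for Mylk. The exact test called 1 of the 4, Vim, at a Benjamini-Hochberg adjusted p of 0.000525, against 8.13% of the 13336 genes tested. The adjusted p was 0.941 for Tagln, 0.975 for Acta2 and 0.278 for Mylk. With the dispersion between the libraries added, edgeR's exact test called none of the 4 (0.142% of all genes), with an adjusted p of 0.891 and an unadjusted p of 0.0462 for Vim, the single member under 0.05. That dispersion was estimated from the same pair of libraries, so fewer calls follow from how the test is built and nothing is read from them. The libraries did not agree within sampling noise, and were counted as 2 samples. Cnn1 did not pass the filter. With every gene that had a count tested, its log2 ratio was 1.38, with an exact binomial p of 0.0121 and an adjusted p of 0.139.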

How the data were processed

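The authors deposited raw counts per gene symbol for both libraries, and per the labels' protocols the RNA was column-extracted and DNase-treated and the library kit kept strand. STAR 2.7.9a, featureCounts and the build mm10 appear in the submitters' processing notes, with no stated role. How strand was handled in counting, and with which annotation, is not given in the sources used here.

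Columns were assigned by replicate number. CPM used TMM factors of 1.005 and 0.995 (edgeR 4.0.16, R 4.3.3). Exon lengths, as the union of exons, came from GENCODE M21 (GRCm38), where 98.3% of symbols matched a single gene. Myl12b had no single match, and Mkl1 and Mkl2 matched as Mrtfa and Mrtfb. Poisson and binomial tests used scipy 1.17.1. Genes were kept for the test with filterByExpr, and the test was checked on simulated data. edgeR's quasi-likelihood test was not used, as 2 libraries of 1 group leave no residual degrees of freedom between them. The log2 ratio of libraries used 0.5 added to each count.

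The members, the 12 lists and the alternatives were chosen with earlier results of these data known. The rule for named genes took all members, all related genes, and the 4 highest and up to 4 uncounted genes of each list. Some genes of the oxytocin list are not reported here, and the luminal, pericyte, endothelial and leukocyte lists are given mainly as counts and sums. Lmod1, Tpm2, Oxt, Proc, Klf4, Krt5, Krt14, Trp63, Col1a1, Plec and Synm were named after their values were seen.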

Additional observations from a re-analysis of the deposited data

How the results depend on the processing

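The number of the 8 genes detected was 1 with total counts, DESeq2 1.42.0 size factors, upper-quartile factors and a minimum of 5 CPM. It was 4 with a minimum of 0.5 CPM (Vim, Tagln, Acta2 and Mylk), and 1 to 2 when either library was left out, with Mylk added by replicate 2 alone. It was 2 without Gm26917 and Gm42418 in the totals, an alternative chosen after seeing the data. That setting moved the mean level of 6 of the 8 genes by more than the SD between libraries, with Vim at 123.7 instead of 110.7 CPM. Another pseudocount moved a list median by more than that SD in 15 recalculations. The smooth muscle contractile median was 1.83 with 0.1 CPM added and 3.33 with 5 CPM added. The count of 10 pairs with a lower member held with longest transcripts, without division by length and without either library. A pseudocount cannot change which gene of a pair is lower, so the count under other pseudocounts tested nothing. The size of log2 differences moved by more than the SD between libraries in 74 of 138 recalculations. Leaving out a library could not count as a move, because each of 2 values lies within their SD of the mean. All 74 moves thus came from another pseudocount or length setting. The binomial test called 972 to 1295 genes under other scalings and filters and Vim in each, with an adjusted p of 5.98e-05 to 0.000838. edgeR's exact test called 19 genes and 0 members, with an adjusted p of 0.891 for Vim, a difference by construction, since it adds the dispersion between libraries (a coefficient of variation of 3.12%). No paired analysis was possible because there is a single group. Depth limits Oxtr, Myh11 and Procr, whose 1 to 4 counts per library set no order among them.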
